A study of Mus musculus with 12 samples.

Results

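The mRNAs described here code for core proteins of the spliceosome and for splicing factors. They were all 59 genes in the deposited count table, of 14675 gene IDs in all, whose mouse symbol starts with Snrp, Srsf, Lsm, Sf3, Prpf or U2af and is not marked as a pseudogene. A further 5 matching symbols (Srsf4, Srsf12, Lsmem1, Lsmem2 and Snrpert) had no row in the table. RNA came from dorsal root ganglion sensory neurons of adult RPL22HA+/+;Advillin-Cre+ mice, in which the Cre, driven by the sensory neuron gene Advillin, puts an HA tag on the ribosomal protein RPL22. IP libraries hold RNA pulled down with an anti-HA antibody, and input libraries hold total RNA, which also contains RNA of cells without the tag. The 4 groups of 3 deposited columns were IP and input from mice given AAV-e5'UTR on top of AAV-shGpr151 (e5UTR below), and IP and input from mice given AAV-shGpr151 alone. All mice had a sciatic nerve injury beforehand and all groups carry the short hairpin RNA against Gpr151. No group without the hairpin was analysed here. Whether the RNA came from neurons in culture, as the series' design has it, or from ganglia taken fresh, as the extraction protocol has it, is unclear, and so is whether animals were pooled.

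The spliceosome removes introns from pre-mRNA in the nucleus. Small nuclear RNAs are packed with a ring of Sm proteins (U1, U2, U4 and U5) or of LSm proteins (U6) into small nuclear ribonucleoproteins (snRNPs). U2AF and the SF3a and SF3b complexes of U2 snRNP mark the branch point and 3' splice site, the U4/U6.U5 tri-snRNP brings in the proteins that position the catalytic centre, and SR proteins bind exons and recruit these machines. Neurons are known for a Sm protein of their own, SmN from the imprinted gene Snrpn, which stands beside the ubiquitous SmB from Snrpb. The mRNAs themselves are translated in the cytoplasm, which is where tagged ribosomes can carry them.

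The 3 columns of a group differed by little more than counting noise. The median chi-square between them was 1.08 to 1.12 times the value from counting, and their totals were almost equal. Each group was therefore counted as 1 sample, called a pool, of 4549204 counts in IP with e5UTR, 4145071 in IP shGpr151 alone, 2928926 in input with e5UTR and 2954427 in input shGpr151 alone. Gpr151, the hairpin's target, had 128 counts in IP with e5UTR, 108 in IP shGpr151 alone, 29 in input with e5UTR and 35 in input shGpr151 alone. Of 11 sensory neuron markers 9 were higher in IP and 1, Snap25, was lower, with a summed level of 9082.9 to 9533.5 CPM (counts scaled to the TMM-adjusted library size) in the IP pools against 4680.7 to 4724.0 CPM in the input pools. Markers of other cells were lower in IP: 7 of 10 Schwann cell genes (262.0 to 285.1 CPM in IP, 1119.9 to 1155.3 in input), 6 of 7 tested fibroblast genes (241.7 to 281.2 against 1530.8 to 1573.6), 6 of 9 tested macrophage genes (73.3 to 80.0 against 174.5 to 175.7) and all 5 red blood cell genes (2.3 to 3.1 against 2295.2 to 2344.8). Of 6 tested satellite glia genes 4 were lower and Glul was higher (289.4 to 303.1 CPM in IP, 1518.7 to 1607.5 in input). Ncmap (Schwann cell), Hbb-bt and Alas2 (red blood cell) were at 0 in both IP pools, and Hbb-bs in IP shGpr151 alone. These markers move with the fraction in every result below, their part in it was not tested, and in bulk RNA fewer cells of a type and less RNA per cell cannot be told apart.

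The comparison of IP with input asked how much of each splicing factor mRNA was in the pulled-down RNA relative to total RNA of all cells. Cell type and binding to the tagged ribosomes cannot be told apart in this ratio. Subunits of SF3a, the U5 proteins Prpf6 and Prpf8, the large U2AF subunit U2af2 and the SR protein gene Srsf1 were higher in IP. The LSm genes Lsm8 and Lsm2, the U2 snRNP gene Snrpb2 and the SR protein gene Srsf3 were lower on the TMM scale. So were Lsm1 and the step-2 factor Prpf18, whose calls ended without either IP pool. Other LSm genes (Lsm4, Lsm7 and Lsm14b) were higher, and the Sm ring stayed near the level of the average gene. Of the 57 members with enough counts to be tested, 14 were higher in IP, 14 were lower and 29 did not pass edgeR's quasi-likelihood test with the 4 pools as samples (adjusted p under 0.05). That is 49.1% of the members, against 60.2% called among all 11343 genes tested (28% higher and 32.2% lower). The members' median log2 ratio of IP over input was −0.0039, against 0.05 for all tested genes, and their SD was 0.82 against 1.73. Of the called members 10 were at least 2-fold higher and 3 at least 2-fold lower, together 22.8% of the tested members, against 47.4% of all tested genes that were called at 2-fold or more. All 28 called members had the same sign in each treatment alone, which largely follows from the call, as both use the same 4 pools.

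The zero of these ratios is set by TMM, a scaling that takes most genes as alike in IP and input. Scaled by library total instead, the median of all genes moved up by 0.89 on the log2 scale, 47 members were then higher and 0 lower, and the share of higher calls among all called genes went up with them (6433 higher and 2365 lower). Lsm3, Lsm5, Snrpe, Snrpf and Snrpg, lower on the TMM scale, passed as higher by library total. "Lower" below therefore means lower relative to the typical gene. Of the 14 higher calls 11 held in all 23 other settings with a test and by library total, and of the 14 lower calls 4 held in those 23 settings (Lsm8, Lsm2, Snrpb2 and Srsf3). With 1 pool left out the lower calls numbered 9 without IP with e5UTR, 10 without IP shGpr151 alone, 9 without input with e5UTR and 8 without input shGpr151 alone.

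**Figure D1:**
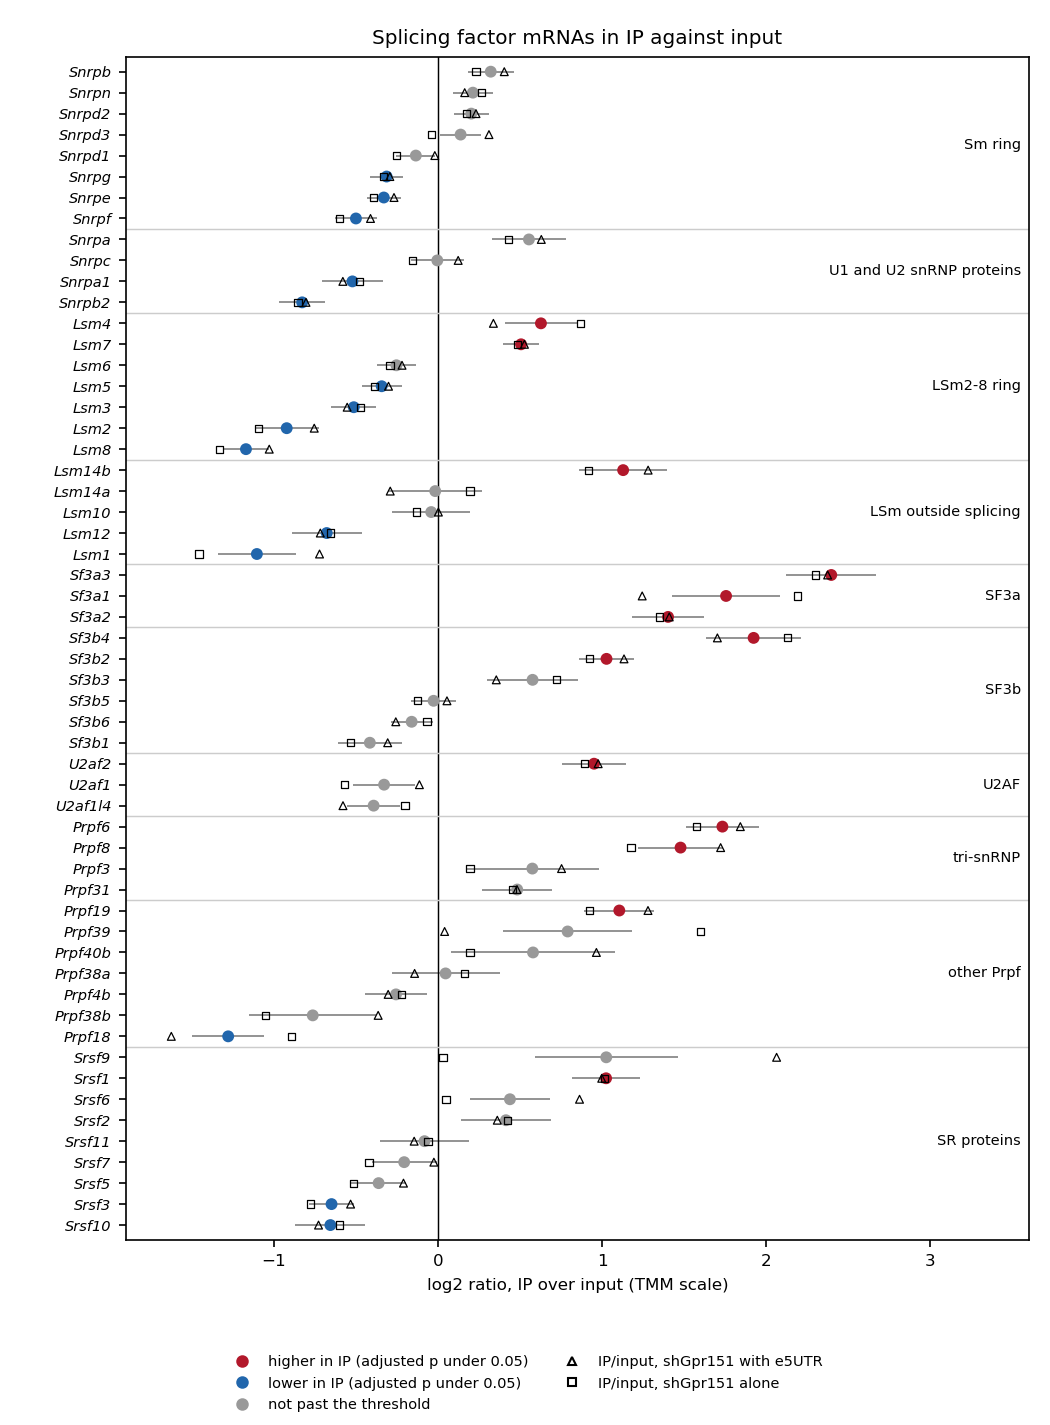
Log2 ratio of IP over input on the TMM scale (x axis) for 56 of the 57 tested members, grouped by role (y axis); filled points are the value over the 4 pools with its SE, triangles and squares the ratio within each treatment (1 pool over 1 pool). SF3a and tri-snRNP genes lie to the right of 0, up to 2.40 for Sf3a3, and the lowest value is −1.28 for Prpf18; by library total all values lie about 0.89 further right.

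SF3a, which binds U2 snRNA and helps U2 snRNP to settle on the branch point, had all 3 of its subunits higher in IP. Sf3a3 stood at 22.8 CPM in IP with e5UTR and 24.0 in IP shGpr151 alone, against 4.19 in input with e5UTR and 4.65 in input shGpr151 alone. Its unscaled counts per column were 52, 44 and 44, and 39, 46 and 50 in the IP groups. In the input groups, whose libraries were smaller, they were 2, 5 and 2, and 2, 4 and 4. On the TMM scale the difference was 5.26-fold (log2 2.40 ± 0.27 SE, adjusted p = 1.3e-05), the largest among the members. Sf3a1 was 3.37-fold higher (13.7 and 17.9 CPM in IP, 5.58 and 3.72 in input; log2 1.75 ± 0.33, adjusted p = 0.00063). Sf3a2 was 2.64-fold higher (27.7 and 28.9 CPM in IP, 10.2 and 11.2 in input; log2 1.40 ± 0.22, adjusted p = 0.00017). The input values of these genes rest on 8 to 24 counts per pool.

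Scaling does not enter when 2 sets of mRNAs are compared within a pool. Summed SF3a counts were 6.77% of the summed counts of the LSm2 to LSm8 genes in IP with e5UTR (95% interval 6.10 to 7.50, exact binomial) and 7.99% (7.19 to 8.85) in IP shGpr151 alone, against 2.08% (1.504 to 2.82) in input with e5UTR and 2.09% (1.503 to 2.84) in input shGpr151 alone. The intervals of the IP pools did not overlap those of the input pools. Set against the Sm genes, SF3a counts came to 2.36% and 2.76% in the IP pools and to 0.696% and 0.672% in the input pools. Intervals here and below cover counting error only, since PCR-amplified reads are not independent molecules. The choice of these sets followed their values.

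SF3b, the U2 snRNP complex that holds the branch point, was divided. Sf3b4, an RNA-binding subunit, was 3.79-fold higher, at 26.4 and 21.3 CPM in IP against 7.91 and 4.65 in input (log2 1.92 ± 0.29, adjusted p = 0.00013). Sf3b2, the subunit that binds Sf3b4, was 2.04-fold higher, at 60.6 and 65.5 CPM in IP against 27.5 and 34.4 in input (log2 1.03 ± 0.17, adjusted p = 0.00021). Both were named for their calls, and in both the lowest IP pool stood above the highest input pool. Sf3b1, the scaffold subunit around the branch point, did not pass the test on the TMM scale (adjusted p = 0.085). It stood at 20.1 and 19.7 CPM in IP against 24.7 and 28.4 in input, with a log2 ratio of −0.41 ± 0.19. By library total its log2 ratio was 0.48 and passed edgeR's quasi-likelihood test as higher (adjusted p = 0.039). The remaining subunits, Sf3b3, Sf3b5 and Sf3b6, lay between −0.16 and 0.58 on the TMM scale without passing. Sf3b3, at 223 counts in all, shares its locus in GRCm38 with Cog4, at 187.

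U2AF binds the polypyrimidine tract through U2af2 and the AG at the 3' splice site through U2af1. U2af2 was 1.93-fold higher, at 34.2 and 31.4 CPM in IP against 17.2 and 16.7 in input (log2 0.95 ± 0.20, adjusted p = 0.0013). For U2af1 the pools lay closer together, at 28.5 and 23.2 CPM in IP against 30.7 and 34.4 in input. By library total its log2 ratio was 0.56 and passed edgeR's quasi-likelihood test as higher (adjusted p = 0.016). On the TMM scale the log2 ratio was −0.33 ± 0.19 and did not pass (adjusted p = 0.16). U2af1l4, a paralog of U2af1, had 226 and 224 counts in IP and 118 and 98 in input and did not pass either. Its locus overlaps Psenen in the RefSeq annotation of GRCm38, and Psenen held 5837 counts over all pools against 666 for U2af1l4, so its counts are uncertain.

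Among the Prpf genes, 4 were higher and 1 lower of 12 tested. Prpf6, which bridges U5 and U4/U6 in the tri-snRNP, was 3.32-fold higher, at 32.4 and 31.1 CPM in IP against 8.84 and 10.2 in input (log2 1.73 ± 0.22, adjusted p = 3.4e-05). Prpf8, the U5 protein that cradles the catalytic RNA, was 2.78-fold higher, at 22.2 and 19.3 CPM against 6.51 and 8.37 (log2 1.48 ± 0.26, adjusted p = 0.00041). The U4/U6 genes Prpf31 and Prpf3 had log2 ratios of 0.48 and 0.57 that did not pass, and Prpf4, with 7 and 10 counts in IP and 6 and 1 in input, was too low to test. Tri-snRNP counts together were 8.95% and 8.77% of those of the LSm2 to LSm8 genes in the IP pools, against 3.93% and 4.09% in the input pools. These sets too were chosen after their values were seen, and the sum holds Prpf6 and Prpf8, so it is not a separate result. Prpf19, the ubiquitin ligase at the core of the PRP19 complex, was 2.15-fold higher, at 31.0 and 32.1 CPM in IP against 12.6 and 16.7 in input (log2 1.105 ± 0.21, adjusted p = 0.00079).

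Prpf18, which acts at the second catalytic step, was the lowest of all tested members. It stood at 14.2 and 16.3 CPM in IP against 43.7 and 30.2 in input (log2 −1.28 ± 0.22, adjusted p = 0.00034). The log2 ratio was −1.62 within e5UTR and −0.89 within shGpr151 alone, and the call ended without either IP pool (adjusted p up to 0.074). Prpf38a, Prpf38b, Prpf39, Prpf40b and Prpf4b did not pass, with log2 ratios from −0.76 to 0.79. Prpf39, at 126 counts in all, shares its locus in GRCm38 with Fkbp3, at 8804.

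The LSm2 to LSm8 genes, whose proteins form the ring on U6 snRNA, did not move together: 2 were higher and 4 lower of 7, and by library total none was lower. Lsm8, the subunit found only in the nuclear ring, stood at 62.1 and 50.2 CPM in IP against 127 and 126 in input (log2 −1.17 ± 0.14, adjusted p = 2.1e-05). Lsm2 was at 17.4 and 16.1 CPM in IP against 29.3 and 34.4 in input (log2 −0.92 ± 0.20, adjusted p = 0.0015). Both were named for their calls and had every IP pool under every input pool on the TMM scale. By library total both ratios were near or below 0 without passing (−0.28 and −0.03). Lsm7 went the other way with 476 and 444 CPM in IP against 330 and 318 in input, 1.42-fold higher (log2 0.51 ± 0.11, adjusted p = 0.0018), and that call ended without input shGpr151 alone (adjusted p = 0.070). Lsm4 was 1.54-fold higher (log2 0.63 ± 0.22, adjusted p = 0.027) and lost its call without IP shGpr151 alone or without either input pool (adjusted p up to 0.12). Lsm3 (log2 −0.51) and Lsm5 (−0.34) were the other lower members and each lost its call without some pool, and Lsm6 (−0.25) did not pass. By library total Lsm3 (0.38), Lsm5 (0.55) and Lsm6 (0.64) passed edgeR's quasi-likelihood test as higher (adjusted p = 0.025, 0.0013 and 0.00033).

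LSm genes with roles outside the U6 ring were also split. Lsm1 takes the place of Lsm8 in the cytoplasmic ring that promotes mRNA decapping. It had 13.04 and 11.4 CPM in IP against 21.4 and 31.1 in input (log2 −1.10 ± 0.24, adjusted p = 0.0016; −0.21 by library total), and the call ended without either IP pool (adjusted p up to 0.085). Lsm14b, a relative of the P-body protein Lsm14a, was 2.19-fold higher, at 16.3 and 15.3 CPM in IP against 6.51 and 7.90 in input (log2 1.13 ± 0.27, adjusted p = 0.0033). Lsm14a itself was at −0.02 ± 0.29 and did not pass. Lsm12 was lower (log2 −0.68), a call that ended without IP with e5UTR or without input shGpr151 alone. Of the U7 snRNP genes, which serve histone mRNA processing, Lsm10 was at −0.04 ± 0.24 without passing, and Lsm11 was too low to test, with 16 and 6 counts in IP and 0 and 1 in input. A count of 0 allows up to 1.40 CPM in input with e5UTR.

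**Figure D2:**
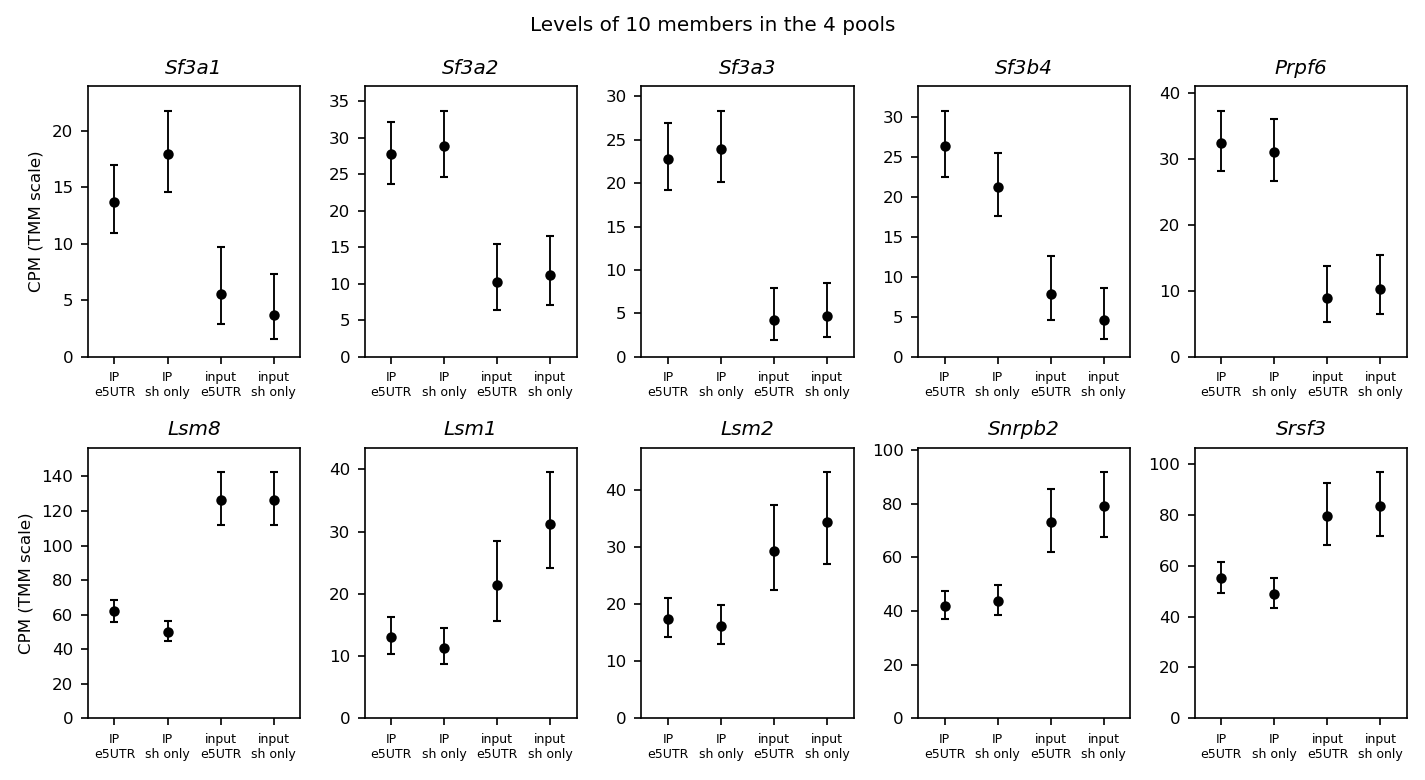
Level in CPM on the TMM scale (y axis, from 0) of 10 members in the 4 pools (x axis; sh only is shGpr151 alone), with exact Poisson 95% intervals. In the upper row the IP pools lie above the input pools, as in Sf3a3 with 22.8 and 24.0 against 4.19 and 4.65 CPM; in the lower row they lie below, as in Lsm8 with 62.1 and 50.2 against 127 and 126 CPM, an order that depends on the scaling.

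The 8 Sm genes, which encode the ring around U1, U2, U4 and U5 snRNA, were close to the typical gene, with 3 lower, 0 higher and a median log2 ratio of 0.0017; by library total these 3 were above 0. Snrpf (127 and 111 CPM in IP, 169 and 168 in input; log2 −0.50 ± 0.13, adjusted p = 0.0046), Snrpe (661 and 620 against 796 and 814; −0.33 ± 0.10, adjusted p = 0.017) and Snrpg (624 and 614 against 765 and 773; −0.31 ± 0.10, adjusted p = 0.020) were the lower members. These 3 proteins form a trimer within the ring. By library total their log2 ratios were 0.39, 0.56 and 0.58. All 3 then passed edgeR's quasi-likelihood test as higher (adjusted p = 0.013, 0.00029 and 0.00021). The calls of Snrpe and Snrpg ended without either input pool, and that of Snrpf without input with e5UTR (adjusted p = 0.055). Snrpd1, Snrpd2 and Snrpd3 had log2 ratios between −0.13 and 0.20 and did not pass.

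Snrpn, the neuronal Sm gene, and Snrpb did not pass the test. Snrpn stood at 229 and 215 CPM in IP against 205 and 179 in input (log2 0.21 ± 0.12, adjusted p = 0.15), and Snrpb at 72.9 and 70.1 against 54.9 and 59.5 (log2 0.32 ± 0.14, adjusted p = 0.064). Snrpn gave 75.9% of the summed Snrpn and Snrpb counts in IP with e5UTR (95% interval 73.9 to 77.8), 75.4% (73.3 to 77.5) in IP shGpr151 alone, 78.9% (75.2 to 82.2) in input with e5UTR and 75.05% (71.1 to 78.7) in input shGpr151 alone. The intervals of all 4 pools overlapped. The genes are close paralogs, and how the authors assigned reads matching both is not stated, so the division between them is uncertain. In GRCm38 the locus of Snrpn, at 3445 counts in all, also overlaps Snhg14, at 123.

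Proteins specific to U1 or U2 snRNP had 2 lower and 0 higher members of 4, and by library total neither was lower. Snrpb2, which encodes the U2 protein B'', stood at 41.9 and 43.8 CPM in IP against 73.0 and 79.0 in input (log2 −0.83 ± 0.14, adjusted p = 0.00031; 0.064 by library total). Its partner Snrpa1, the U2 protein A', was at 22.5 and 27.1 CPM in IP against 33.5 and 37.7 in input (log2 −0.52 ± 0.19, adjusted p = 0.030), and that call ended without any 1 of the 4 pools. The U1 genes Snrpa and Snrpc had log2 ratios of 0.55 ± 0.23 and −0.0039 ± 0.16 and did not pass. Snrpa, at 312 counts in all, shares its locus in GRCm38 with BC024978, at 123. Within U2 snRNP the 3 SF3a genes lay on the other side of 0 from Snrpb2 and Snrpa1 on the TMM scale, while by library total all 5 were above 0.

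Of the 9 SR protein genes, 1 was higher, 2 were lower and 6 did not pass. Srsf1, a founding SR protein, was 2.03-fold higher, at 29.2 and 28.6 CPM in IP against 14.4 and 13.9 in input (log2 1.02 ± 0.20, adjusted p = 0.0010). Srsf3, the smallest SR protein, was at 55.1 and 49.0 CPM in IP against 79.6 and 83.7 in input (log2 −0.65 ± 0.14, adjusted p = 0.0017), and Srsf10 at 14.7 and 18.5 against 24.2 and 27.9 (log2 −0.66 ± 0.21, adjusted p = 0.019); by library total both were above 0, at 0.24. The call of Srsf10 ended without IP with e5UTR or without input shGpr151 alone (adjusted p up to 0.13). Srsf2, at 15.2 and 12.1 CPM in IP against 11.6 and 8.83 in input, did not pass (log2 0.41 ± 0.27, adjusted p = 0.21). Srsf9, at 12.6 and 7.28 CPM in IP against 2.79 and 6.97 in input, did not pass either (adjusted p = 0.060), and its ratio was 2.06 on the log2 scale within e5UTR and 0.03 within shGpr151 alone. Srsf5, Srsf6, Srsf7 and Srsf11 lay between −0.36 and 0.44 without passing. In GRCm38 the locus of Srsf2, at 205 counts in all, overlaps Mfsd11, at 250. That of Srsf9, at 139, overlaps Gatc, at 54, so the counts of both are less certain.

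Across the 57 tested members the log2 ratio fell with the level (Spearman rho −0.40 with the mean CPM of the 4 pools), and over all 11343 tested genes the rho was −0.21. Level and ratio share the same counts. The genomic span of the gene in GRCm38 had a rho of 0.17 over the members and 0.02 over 9863 genes. The ratios within the 2 treatments ranked the members alike (rho 0.89, n = 57, scaling shared), with 51 of 57 members on the same side of 0. These are descriptions of genes in the same libraries and carry no test.

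Other genes of the splicing machinery were taken from 6 lists. Of their 141 tested genes, 55 were higher and 32 lower in IP. Among all tested genes 28% were higher and 32.2% lower. The hnRNPs, which bind nascent RNA and often act against SR proteins, had 13 higher and 2 lower of 23 (median log2 0.67), from Pcbp1 (log2 −1.27 ± 0.14) to Hnrnpul2 (1.86 ± 0.23). Regulators of alternative splicing had 14 higher and 7 lower of 27 (median 0.61), from Rbm5 (−3.38 ± 0.14) to Celf6 (1.99 ± 0.43). Celf6 had 53 and 46 counts in IP and 6 and 3 in input, and passed the count filter through its IP counts. The SMN complex and its helpers, which load Sm proteins on snRNA, had 7 higher and 3 lower of 14 (median 0.76), from Ddx20 (−1.98 ± 0.24) to Gemin5, which had 26 and 15 counts in IP and 0 in both input pools and was at least 2.47-fold higher against a floor of 3 counts per pool. The medians of these 3 lists lay above the 0.05 of all tested genes.

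Proteins of other snRNPs had 8 higher and 8 lower of 31 (median 0.05), from Luc7l2 (−3.11 ± 0.14) to Sart1 (3.12 ± 0.32), a tri-snRNP protein. Catalytic-stage proteins and helicases had 8 higher and 4 lower of 25 (median 0.27), from Bcas2 (−3.30 ± 0.14) to Xab2 (2.66 ± 0.35). SR-related proteins, SR kinases and exon junction proteins had 5 higher and 8 lower of 21 (median −0.32), from Sap18 (−2.51 ± 0.11) to Casc3 (2.28 ± 0.41). The lowest of these genes were among the more counted in input, with 16054 and 15882 counts for Sap18 and 5459 and 5509 for Luc7l2. The highest had few counts in input, with 7 and 6 for Sart1, 11 and 4 for Xab2 and 3 and 6 for Casc3. Sart1 and Casc3, under 10 counts in both input pools, passed the count filter through their IP counts. By library total the balance of these 3 lists was different, with 21 higher and 3 lower for other snRNPs, 18 higher and 1 lower for the catalytic stage and 11 higher and 4 lower for the SR-related list. With that scaling 6433 of all 11343 tested genes were higher and 2365 lower. No tested member of the Snrp, Srsf, Lsm, Sf3, Prpf or U2af families was under −1.28.

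**Figure D3:**
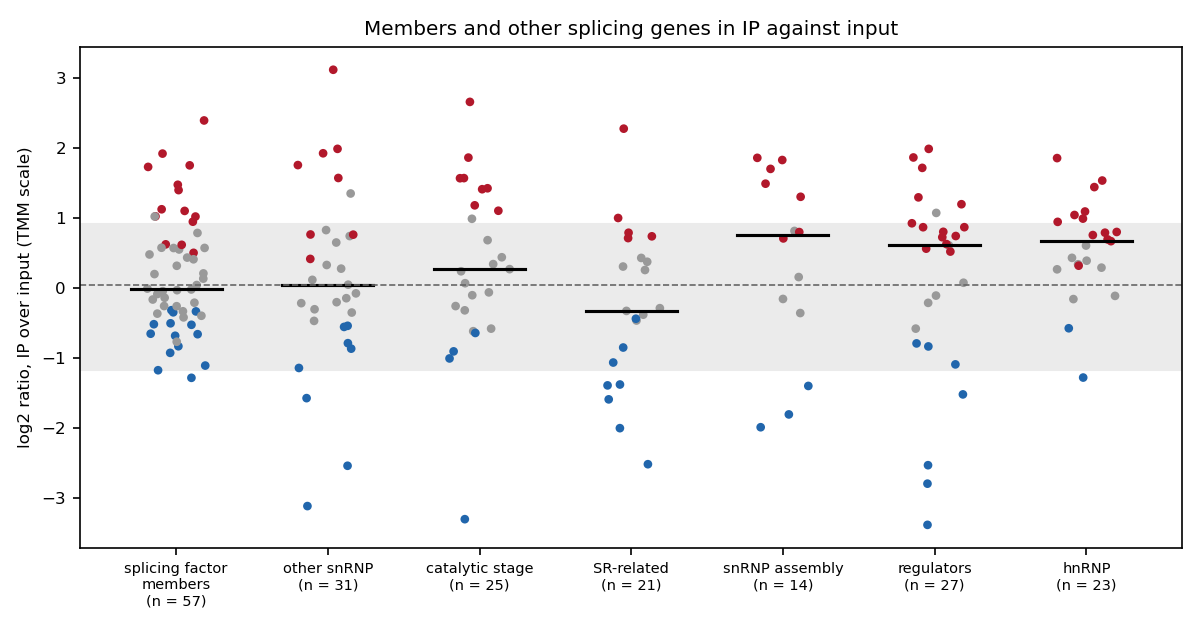
Log2 ratio of IP over input on the TMM scale (y axis) for the 57 tested members and 6 lists of other splicing genes (x axis); red and blue points are higher and lower in IP at an adjusted p under 0.05, grey points are not, bars are medians, and the grey band and dashed line are the middle range (25th to 75th percentile, −1.17 to 0.92) and median (0.05) of all tested genes. Of the members 44 lie inside the band, with none under −1.28; Gemin5 is drawn at its lower bound of 2.47-fold, and by library total all other points move up by about 0.89.

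The comparison of e5UTR with shGpr151 alone had 1 pool per group, so differences have no replicate check and no test. A gene was called where the ratio was at least 1.5-fold and its exact binomial 95% interval left out 1. In IP, 2 of 57 members were called, both higher with e5UTR (3.51%, against 8.15% of all 11343 genes, 3.4% higher and 4.75% lower). Counted in the higher direction alone, the members' share was close to that of all genes. In input 0 of 57 were called (3.2% of all genes, 1.51% higher and 1.69% lower). With edgeR's quasi-likelihood test on the columns, which compares the reads of these pools and not the conditions, 1 of 56 members passed in IP and 0 in input, against 10.9% and 0.198% of the 8085 genes in that fit. The median ratio of the members was 1.05 in IP and 0.987 in input, against 0.997 and 1.00 for all tested genes, and 96.5% of the members lay within 1.5-fold in IP and 87.7% in input, against 82.3% and 75.2% of all tested genes.

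Srsf9, an SR protein that represses some exons, had 77 counts in IP with e5UTR and 41 in IP shGpr151 alone, a ratio of 1.73 (95% interval 1.17 to 2.59). Its columns held 28, 29 and 20 counts with e5UTR and 12, 14 and 15 with shGpr151 alone. These are unscaled parts of the same pools and give no replicate check. In input the order was the other way, with 6 counts with e5UTR and 15 with shGpr151 alone (ratio 0.4004, 0.127 to 1.09). Prpf3 had 50 counts in IP with e5UTR and 28 in IP shGpr151 alone (ratio 1.64, 1.01 to 2.71), and 10 against 9 in input (1.11, 0.406 to 3.09). The call of Prpf3 ended without column 1 or 3 of IP shGpr151 alone or column 1 of IP with e5UTR, which left Srsf9 as the 1 higher member. Without column 3 of IP shGpr151 alone Lsm14a was also called, as lower. The member that passed on the columns in IP was Sf3b5, named after its values were seen, with 926 counts with e5UTR and 700 with shGpr151 alone (ratio 1.22, 1.101 to 1.34, edgeR adjusted p = 0.014).

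The most counted members had the narrowest intervals, but with 1 pool per group small ratios have no replicate check. In IP the interval left out 1 for 13 members (22.8%), against 21.0% of all tested genes. The 8 Sm genes, which share the same pools and scaling, had ratios from 1.02 to 1.15 in IP and from 0.883 to 1.14 in input. Snrpe, with 4057 counts in IP with e5UTR and 3494 in IP shGpr151 alone, was at 1.07 (1.02 to 1.12), and in input, with 1711 and 1752 counts, at 0.977 (0.914 to 1.05). SF3a, the group that stood highest in IP against input, had ratios in IP of 0.764 for Sf3a1, 0.958 for Sf3a2 and 0.953 for Sf3a3, each with an interval that held 1. A change of the e5UTR ratio between IP and input was called for 0 members by the interaction in edgeR's quasi-likelihood test on the columns (413 of 8085 genes, 5.11%). Srsf9 had the lowest adjusted p there (log2 2.07, edgeR adjusted p = 0.0996).

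**Figure D4:**
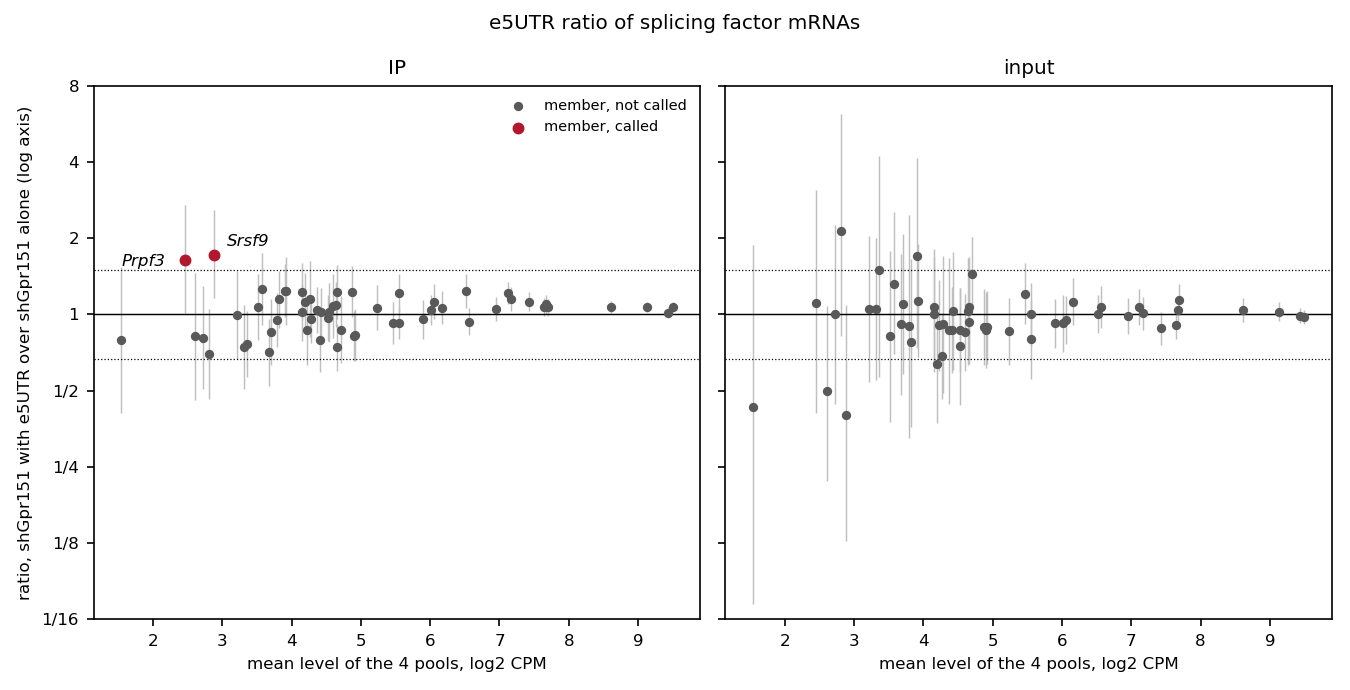
Ratio of counts with e5UTR over shGpr151 alone (y axis, log scale) against the mean level over the 4 pools (x axis, log2 CPM) for the 57 tested members, in IP (left) and input (right), with exact binomial 95% intervals; dotted lines mark 1.5-fold either way. Srsf9 at 1.73 and Prpf3 at 1.64 are the called members in IP, none is called in input, and the intervals narrow with the level.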

How the data were processed

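The authors deposited estimated counts per Ensembl gene ID as whole numbers, for 12 columns matched to samples by name. A cDNA-PCR barcoding kit for nanopore sequencing was used, per the labels' protocols. Per the submitters' processing notes minimap2, Salmon and the builds GRCm39 and mm39 were used. Versions, the role of each tool, the annotation and any filter are not given there. Symbols were found for 13191 IDs (89.9%). The RefSeq table used for neighbouring genes is of GRCm38, so no coordinates are given.

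The columns of each group were summed to a pool after a chi-square comparison over genes with at least 30 counts. IP was tested against input with edgeR 4.0.16 in R 4.3.3 (quasi-likelihood test, TMM, filterByExpr with minimum count 10 and minimum total 15, Benjamini-Hochberg adjustment over 11343 genes), with the 2 pools of a fraction as its samples. These pools differ in treatment, which counts as spread, and the labels name no cultures or animals, so p-values measure only the spread between pools, which may be technical. The biological coefficient of variation was 10.4%, against 2.58% over the columns. SEs were taken from the test statistic. Ratios within a treatment add 0.5 count to each pool. CPM were scaled to TMM-adjusted library sizes. With 3 counts as the floor, an undetected gene could reach 0.489 CPM in IP with e5UTR, 0.532 in IP shGpr151 alone and 1.40 in input with e5UTR. DESeq2 1.42.0, other scalings and filters, a treatment term, the columns as samples and left-out pools or columns were tried. Scripts were tested on simulated data.

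The members, roles and lists were chosen with earlier results of these data known. Genes were named by family: the 3 highest and 3 lowest called members, 8 core genes whatever their values, every member called for e5UTR, members at 0, and the extremes of each list. The remaining members are named only to account for them, after their values were seen. Of the tested members, 1 is counted in the totals but not reported here.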

Additional observations from a re-analysis of the deposited data

How the results depend on the processing

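The count of 14 higher members in IP became 47 by library total, and with the 12 columns as samples it was 23, also with a replicate block. Leaving out a pool or a column gave 13 to 16 higher and 8 to 15 lower members. The 14 lower members became 0 by library total and 9 with DESeq2. Of these lower members Lsm3, Lsm5, Snrpe, Snrpf and Snrpg passed as higher by library total. By library total the log2 ratio changed sign for 25 of 57 members (10 of the 14 lower, 0 of the 14 higher and 15 not called), among them Snrpb2 (0.064), Snrpa1 (0.37), Snrpf (0.39), Snrpe (0.56), Snrpg (0.58), Srsf10 (0.24), Srsf3 (0.24), U2af1 (0.56) and Sf3b1 (0.48), a shift that follows from the scaling itself. The lists then had 21 higher and 3 lower (other snRNP proteins), 18 and 1 (catalytic stage), 11 and 4 (SR-related) and 21 and 1 (hnRNP), and regulators had 3 lower. For e5UTR in IP the 2 higher members became 0 at 2-fold, 1 with a mean count of at least 10 and 1 with edgeR over the columns, with or without a replicate block. Leaving out columns gave 1 to 2 higher and 0 to 1 lower in IP, and 0 to 1 higher and 0 to 2 lower in input. Apart from library total no called member changed sign. Columns with the same replicate number did not deviate together (r from −0.028 to 0.036, best with their own number in 7 of 18 cases), so the numbers were not taken as pairs. The interaction was added after the data were seen. Input counts under 30 in both pools limit the ratios of, among others, SF3a, Sf3b4, Prpf6, Prpf8, Lsm14b and Srsf9. The same holds for the list genes Sart1, Xab2, Casc3, Celf6 and Hnrnpul2.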
